A study of Mus musculus with 6 samples.

Results

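The interferon regulatory factors (IRFs) are a family of transcription factors, and 8 of them were read here in sorted regulatory T cells (Tregs, the CD4+ T cells that express Foxp3 and restrain immune responses). The members were taken by gene symbol as Irf1, Irf2, Irf3, Irf4, Irf5, Irf7, Irf8 and Irf9, which are 8 of the 15944 genes of the table. Bulk RNA was sequenced from spleen Tregs of C57BL/6 mice in 2 sorts with 3 libraries each. The first sort, called RORγt+ Tregs, was CD3+, CD4+, positive for a red fluorescent reporter of Foxp3 and positive for a green fluorescent reporter of the transcription factor RORγt. The second, called CCR6+RORγt- Tregs, was CD3+, CD4+, positive for the Foxp3 reporter, negative for the RORγt reporter and stained for the chemokine receptor CCR6. Both groups therefore carry both reporters, the cells of both are labelled naive, and CCR6 gated the second sort only. The sources used here give neither the age nor the number of the animals and tie no library to one animal. The p-values below thus reflect only how far these libraries scatter, and that scatter may be technical.

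Every IRF binds DNA through a conserved domain with a repeat of tryptophans, which recognises variants of the sequence GAAA. Interferons act through receptors and Janus kinases on STAT proteins. STAT dimers bind the gamma-activated sequence (GAS), and a complex of STAT proteins with IRF9 called ISGF3 binds the interferon-stimulated response element (ISRE). In T cells the family is best known for IRF4, which is induced by the antigen receptor and is required for effector Treg differentiation, and for IRF1, which is known to restrain Treg development.

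All 8 members were detected in every library, and no member passed the test between the sorts over all genes. Limma on log2(normalized count + 1) called 0 of the 8 at an adjusted p under 0.05, against 0.564% of all 15944 genes. At an unadjusted p under 0.05 it listed 1 of the 8 (Irf8), against 10.9% of all genes, and in 6 of the 15 alternatives it listed 0. The other alternatives did not all list Irf8. Without RORγt+ replicate 3 the member listed was Irf1 (limma adjusted p = 0.109, against 0.313 for Irf8). The same held without both that library and CCR6+RORγt- replicate 2 (limma adjusted p = 0.275 against 0.457). Irf8 was also the 1 member whose groups did not overlap, with RORγt+ lower, against 18.1% of all genes in either direction (8.31% with RORγt+ higher and 9.81% with RORγt+ lower). Log2 fold changes give RORγt+ minus CCR6+RORγt- after adding 1 to each value. They were above 0 for 5 members and below 0 for 3, and their median was 0.056 against −0.011 over all genes. The median size of the difference was 0.16 for the family and 0.25 over all genes.

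**Figure D1:**
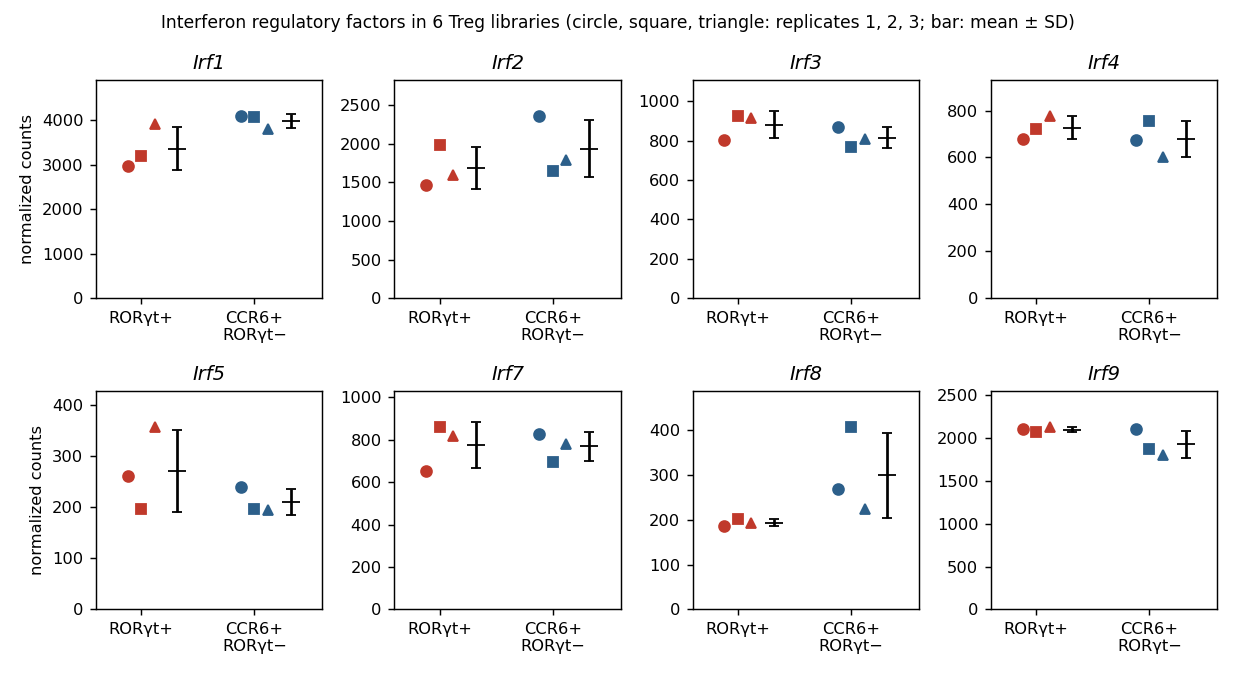
Normalized counts of the 8 members (vertical axes, each from 0) in the 3 RORγt+ libraries (red) and the 3 CCR6+RORγt- libraries (blue), with circles, squares and triangles for replicates 1, 2 and 3 and the mean ± SD beside each group. The groups are apart for Irf8, where the RORγt+ libraries lie between 186 and 201 and the others between 223 and 405, and overlap for the other 7.

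The libraries were checked against the sort first. The T cell receptor subunit Cd3e averaged 6586 and 6894 normalized counts in RORγt+ and CCR6+RORγt- Tregs, Cd4 10037 and 10729, and Foxp3 11505 and 9963, and none of the 3 passed the test. Ccr6 averaged 804 and 134 (log2 fold change 2.58, limma adjusted p = 0.00554), so it was lower in the sort that was gated on its protein. The value of a single read puts the depth of the libraries at roughly 9200000 to 14500000 reads. RORγt+ replicate 3 had the fewest reads and stood apart, with correlations of 0.932 to 0.938 to the other libraries on the log2 scale. In counts of reads the members ranged from about 155 for Irf8 in RORγt+ replicate 3 to about 4638 for Irf1 in CCR6+RORγt- replicate 3. Counting error alone then gives a coefficient of variation of 8.03% and 1.47% for these extremes.

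The means of 3 members were lower in the RORγt+ libraries (Irf1, Irf2 and Irf8). Their promoters are the 3 of the family that held the letters of a GAS element. That overlap was noticed after the values were seen and has no test. None of the 3 differences passed (limma adjusted p = 0.579, 0.784 and 0.439), and the values of the 2 sorts overlapped for Irf1 and Irf2. RefSeq promoters (GRCm38.p6, 250 bases before to 50 after a start) were matched for 8 of 8 members, with 11 windows in all. They were searched on both strands for the GAS letters TTCNNNGAA, the ISRE letters (GAAA, any 2 bases, GAAA) and the letters of an NF-κB site (GGGA, any 2 bases, TTCC). The GAS letters were found in 3 of the 8 members, against 9.55% of all 27025 genes with a promoter. The ISRE letters were found in 1 member (Irf2), against 3.99% of genes, and the NF-κB letters in 0, against 1.63%. A match describes letters and is not a measured binding site, and a missing match says only that these letters are not in these windows. The stretches of these 3 members that hold the matches are shown. All lie before the start and on the plus strand, with the matched letters in capitals.
Irf1, chr11:53769894-53769962: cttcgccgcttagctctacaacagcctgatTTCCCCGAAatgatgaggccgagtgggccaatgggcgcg
Irf2, chr8:46739495-46739559: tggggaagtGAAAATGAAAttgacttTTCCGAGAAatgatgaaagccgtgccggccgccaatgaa
Irf8, chr8:120736157-120736243: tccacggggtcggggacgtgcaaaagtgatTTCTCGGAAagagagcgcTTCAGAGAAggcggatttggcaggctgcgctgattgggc
The Irf1 stretch holds 1 GAS match, whose first base is at −90 from the start. The Irf2 stretch holds an ISRE match at −241 and a GAS match at −224. The Irf8 stretch holds 2 GAS matches, at −171 and −153.

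Irf1 is an activator of interferon-stimulated and antigen presentation genes and is itself induced by interferon. Its gene lies on chromosome 11 (53770014 to 53778374, GRCm38). It stood at 2973, 3206 and 3913 normalized counts in RORγt+ replicates 1 to 3, and at 4093, 4066 and 3803 in CCR6+RORγt- replicates 1 to 3. All 3 CCR6+RORγt- libraries and RORγt+ replicate 3 were high, and RORγt+ replicates 1 and 2 were low, so the groups overlapped by 1 library. The means were 3364 ± 490 and 3987 ± 160 (SD, n = 3), and the log2 fold change was −0.25 ± 0.13 (SE, limma adjusted p = 0.579). Its 95% interval runs from 0.674 to 1.04 as a fold. Without RORγt+ replicate 3 the log2 fold change was −0.37 (adjusted p = 0.109), the lowest adjusted p among the 15 alternatives for this gene, where the highest was 0.886.

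Irf2 binds the same elements as IRF1 and is known mainly as its antagonist, and its gene lies on chromosome 8 (46739732 to 46847458). Its normalized counts were 1470, 1990 and 1597 in the RORγt+ libraries and 2359, 1654 and 1796 in the others. Each group held 1 library above the rest, RORγt+ replicate 2 and CCR6+RORγt- replicate 1, and the groups overlapped. The difference on the log2 scale was −0.19 ± 0.18 (SE, adjusted p = 0.784), and it was −0.044 without CCR6+RORγt- replicate 1. Within a library the ratio of Irf1 to Irf2 levels per kilobase was 2.37 ± 0.49 in RORγt+ Tregs and 2.46 ± 0.42 in CCR6+RORγt- Tregs (SD, n = 3), or 1.34 ± 0.28 and 1.39 ± 0.24 with median coding lengths. The log2 ratio differed by −0.059 (exact two-sided permutation p = 0.7, adjusted over 4 pairs 0.7), and its sign turned without replicate 2 of either sort.

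Irf8 and Irf4 are the closest relatives in the family. Both bind weakly alone and act with partners such as the ETS factors Spi1 and Spib or AP-1 dimers that contain Batf. Irf8 is known as a factor of B cells, dendritic cells and monocytes that activated T cells also express, and its gene lies on chromosome 8 (120736358 to 120756694). Its normalized counts were 186, 201 and 193 in the RORγt+ libraries and 268, 405 and 223 in the CCR6+RORγt- libraries. The RORγt+ libraries were all low and close together, with a coefficient of variation of 4.03%, below the counting error of the thinnest library. The CCR6+RORγt- libraries were all higher and spread over 31.8%, with replicate 2 the highest. The mean was 193 ± 7.79 against 299 ± 94.9 (SD, n = 3), a log2 fold change of −0.58 ± 0.24 (SE, unadjusted p = 0.0435, adjusted p = 0.439 by limma). The 95% interval runs from 0.453 to 0.985 as a fold. Without CCR6+RORγt- replicate 2 the log2 fold change was −0.34 (adjusted p = 0.787). Over the 15 alternatives it lay between −0.77 and −0.34, with adjusted p between 0.250 and 0.787. The gene model Gm20388 overlaps Irf8 on the same strand but shares none of its 31-base windows. Gm20388 was at 0, 0 and 898 normalized counts in RORγt+ libraries and at 456, 0 and 330 in the others, which does not follow Irf8.

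Because Irf8 is abundant in other spleen cells, their markers were read in the same libraries. Markers of plasmacytoid dendritic cells (7 measured) summed to 1512 to 1781 normalized counts in RORγt+ libraries and 2131 to 2262 in CCR6+RORγt- libraries, with no overlap. That separation came from Pacsin1, which averaged 775 and 1375 (adjusted p = 0.208). Without Pacsin1, left out after the values were seen, the sums were 828 to 987 and 743 to 857 and overlapped. Of the 7 markers, 5 had a log2 fold change below 0, as Irf8 had, and 2 had one above 0. Bst2, also an interferon-stimulated gene, had an adjusted p of 0.973. Ccr9 went the opposite way to Irf8, at 195 and 95.1 (adjusted p = 0.241), with no overlap. The defining marker Siglech went the same way as Irf8, at 1.35 and 2.94 (adjusted p = 0.729), also with no overlap. Its values were near the floor, between 0 and 3.65, and it was at 0 in RORγt+ replicate 3. Summed markers of B cells (10 measured, led by Cd79b and Cd22) reached 726, 417 and 443 in the RORγt+ libraries and 568, 717 and 436 in the CCR6+RORγt- libraries. They were highest in RORγt+ replicate 1, where Irf8 was lowest, and next in CCR6+RORγt- replicate 2, where Irf8 was highest. Their defining factor Ebf1 was at 0 in RORγt+ replicate 2 and CCR6+RORγt- replicate 1. Conventional dendritic cell markers (6 measured, led by the MHC class II genes H2-Aa and H2-Ab1, which B cells also express) summed to 153 to 309 and to 65.9 to 363, with the top values in that same pair of libraries. Among them Itgax was at 0 in CCR6+RORγt- replicate 1 and Xcr1 in RORγt+ replicate 3.

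Markers of monocytes and macrophages (7 measured, led by Ly6c2 and Itgam) summed to 122 to 231 in RORγt+ libraries and 79.9 to 113 in the others, which is the opposite direction to Irf8, and Spi1 was at 0 in CCR6+RORγt- replicate 3. Neutrophil markers (4 measured, led by Mmp9 and Cxcr2) summed to 124 to 251 and 70.8 to 95.4, but to 24.1 to 54.5 and 27.5 to 37.3 without Mmp9, and S100a9 was at 0 in 4 libraries. Markers of gamma delta and innate type 17 T cells (8 measured, led by Trdc and Tcrg-C1) summed to 199 to 260 and 135 to 201, and those of CD8 T and NK cells (8 measured, led by Prf1 and Cd8b1) to 394 to 591 and 361 to 470. In these 7 lists 0 genes passed the limma test over all genes, and 11 of their 50 entries (22%) had an unadjusted p under 0.05, against 10.9% of all genes. The part of these cells in the Irf8 values was not tested. In bulk RNA, fewer cells of a type and less RNA per cell cannot be told apart.

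**Figure D2:**
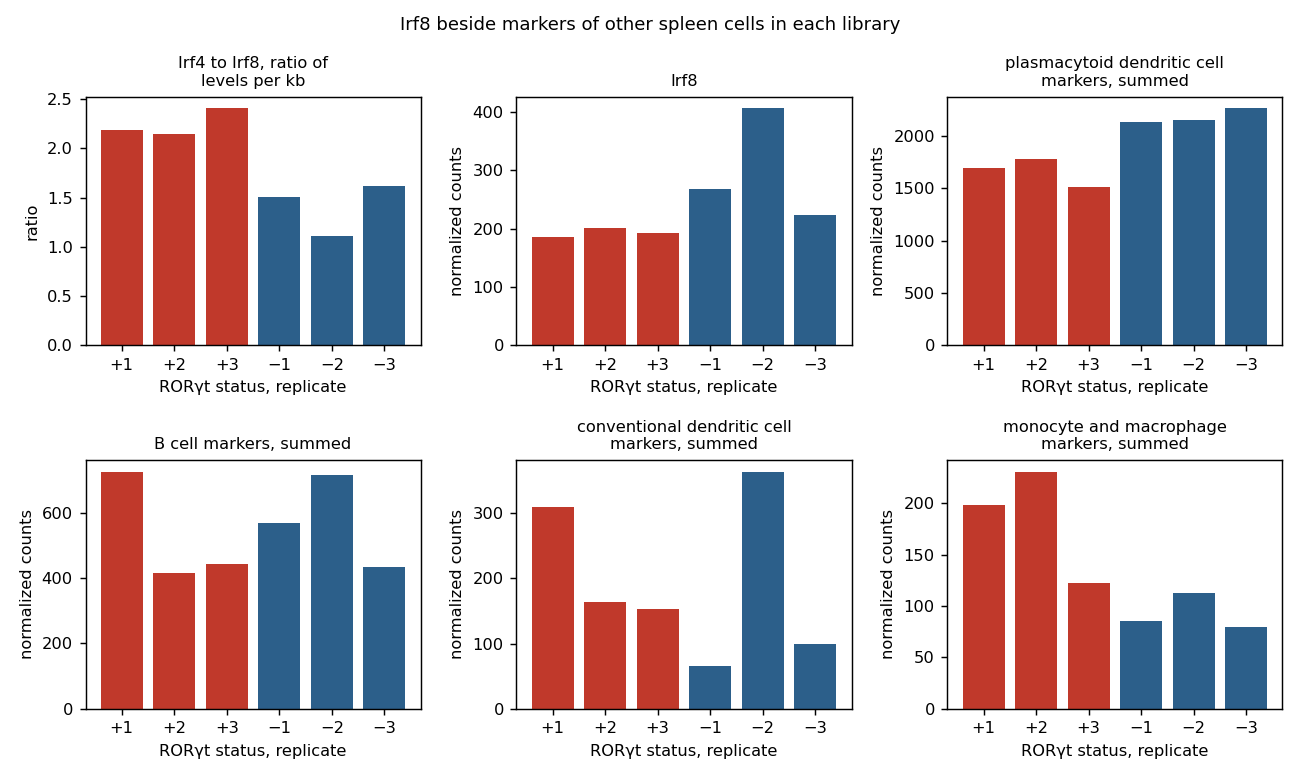
The ratio of Irf4 to Irf8 levels per kilobase, Irf8 normalized counts, and summed normalized counts of plasmacytoid dendritic cell, B cell, conventional dendritic cell and monocyte and macrophage markers (vertical axes from 0) in each library, with RORγt+ replicates in red and CCR6+RORγt- replicates in blue. Irf8 reaches 405 in CCR6+RORγt- replicate 2, where B cell markers sum to 717, and RORγt+ replicate 1 has B cell markers at 726 with Irf8 at 186. The plasmacytoid dendritic cell sums are apart between the sorts through Pacsin1 and overlap without it.

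Irf4, on chromosome 13 (30749226 to 30766976), carries antigen receptor signals into effector programmes. It stood at 679, 723 and 776 normalized counts in RORγt+ libraries and at 675, 756 and 603 in CCR6+RORγt- libraries. High and low libraries were mixed between the sorts and the groups overlapped. The means of 726 ± 48.7 and 678 ± 76.6 (SD, n = 3) gave a log2 fold change of 0.10 ± 0.14 (SE, adjusted p = 0.873), with a 95% interval of 0.853 to 1.35 as a fold. No 31-base window of Irf4 occurs in a transcript of another gene.

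The balance between these 2 relatives was read within each library. The ratio of Irf4 to Irf8 levels per kilobase was 2.19, 2.15 and 2.41 in RORγt+ Tregs and 1.503, 1.11 and 1.62 in CCR6+RORγt- Tregs. Every RORγt+ library lay above every CCR6+RORγt- library. Which of the relatives was higher depends on the transcript length used, because with median coding lengths the ratios were 1.37, 1.34 and 1.5027 against 0.939, 0.696 and 1.01. The difference between the sorts on the log2 scale does not depend on length. The log2 ratio differed by 0.69 (p = 0.1 by exact two-sided permutation, and 0.4 adjusted over 4 pairs). No smaller p is possible with 3 libraries a group, so the design cannot place it past 0.05. The difference rests on the Irf8 values given above, and it lay between 0.53 and 0.79 when each library was left out in turn.

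Irf9 joins STAT proteins to form ISGF3 and supplies its DNA contact, and its gene lies on chromosome 14 (55603571 to 55610030). Its normalized counts were 2105, 2067 and 2123 in the RORγt+ libraries, a coefficient of variation of 1.36%, and 2107, 1870 and 1800 in the others. CCR6+RORγt- replicate 1 matched the RORγt+ libraries and the other two were lower, so the groups overlapped. The log2 fold change was 0.13 ± 0.12 (SE, adjusted p = 0.775), with a 95% interval of 0.906 to 1.32 as a fold. Other genes share 4.82% of its 31-base windows, mainly the overlapping Rnf31 on the same strand, which averaged 1043 and 1246 normalized counts. Rnf31 varied widely, at 338, 1761 and 1032 in RORγt+ libraries and at 1283, 1728 and 726 in the others.

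Irf3 is present before infection and is activated by phosphorylation through the kinases TBK1 and IKKε, while Irf7 is induced by interferon and amplifies the response. Both genes lie on chromosome 7, at 44997648 to 45002848 and at 141262706 to 141266481. Irf3 stood at 802, 925 and 914 normalized counts in RORγt+ libraries and at 871, 766 and 808 in the others (log2 fold change 0.11 ± 0.13, SE, adjusted p = 0.839). Irf7 stood at 652, 858 and 818 in RORγt+ libraries and at 829, 694 and 780 in the others (log2 fold change 0.0083 ± 0.16, SE, adjusted p = 0.992). Both pairs of groups overlapped, and the sign of the Irf7 value turned under upper-quartile scaling and when 3 of the 6 libraries were left out singly, at −0.069 without RORγt+ replicate 2, −0.035 without RORγt+ replicate 3 and −0.062 without CCR6+RORγt- replicate 2. The ratio of Irf3 to Irf7 levels per kilobase was 1.26 ± 0.088 and 1.17 ± 0.039 (SD, n = 3, exact two-sided permutation p = 0.2). That of Irf9 to Irf7 was 2.08 ± 0.32 and 1.90 ± 0.15 (exact two-sided permutation p = 0.5), and the sign of its log2 difference turned without RORγt+ replicate 1. Adjusted over the 4 pairs these were 0.4 and 0.667.

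Irf5 acts downstream of Toll-like receptors and is best known in myeloid and B cells, and its gene lies on chromosome 6 (29526625 to 29541871). It stood at 260, 196 and 356 normalized counts in RORγt+ libraries and at 240, 196 and 195 in CCR6+RORγt- libraries. RORγt+ replicate 3 was the highest and the groups overlapped. The means of 271 ± 80.3 and 211 ± 25.8 (SD, n = 3) gave a log2 fold change of 0.33 ± 0.25 (SE, adjusted p = 0.721). Leaving out RORγt+ replicate 3 gave 0.11, and leaving out RORγt+ replicate 2 gave 0.54. Of its windows, 12.3% also occur in Tnpo3, which overlaps it on the opposite strand and averaged 1258 and 1259 normalized counts. Tnpo3 stood at 1400, 1348 and 1025 in RORγt+ libraries and at 1064, 1272 and 1441 in the others. It was thus lowest in RORγt+ replicate 3, where Irf5 was highest. The sources used here do not say whether strand was used in counting, so reads of Irf5 and Tnpo3 in the shared stretch may not be separable.

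**Figure D3:**
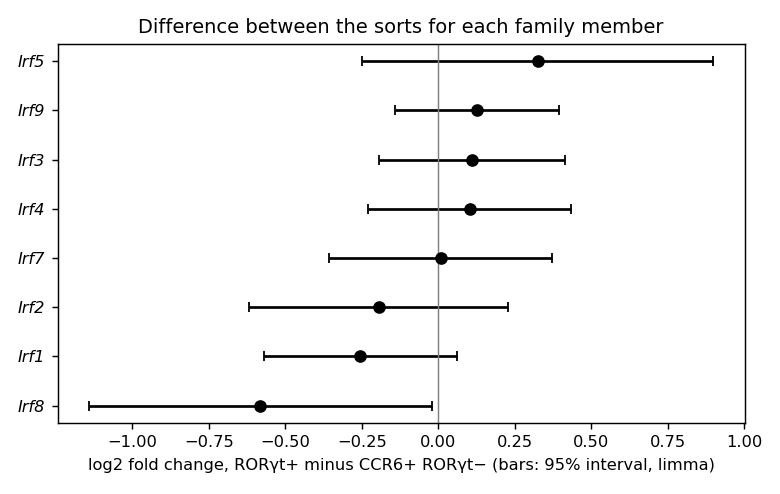
Log2 fold changes (horizontal axis, RORγt+ minus CCR6+RORγt-) of the 8 members with 95% intervals from limma, ordered by value. The interval of Irf8 ends at −0.022 and the other 7 intervals include 0, and no member passed after adjustment over all genes.

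Levels were compared between members as normalized counts per kilobase of the longest coding transcript in GENCODE M21, as means over the 6 libraries. Irf1 was the highest at 1720, and its lowest library, 1391, lay above the highest library of every other member at this length. Irf2 (725, from 589 to 945) and Irf9 (680, from 608 to 718) came next and overlapped in range. Irf3 (417, from 377 to 455) and Irf7 (345, from 291 to 383) followed, below all libraries of Irf9, and overlapped with each other. Irf4 (147, from 127 to 163), Irf5 (107, from 87.0 to 159) and Irf8 (86.4, from 65.2 to 142) were the lowest, and neighbours in that order overlapped. Irf1 thus made up 38.5% ± 2.85 of the family's summed level per kilobase in RORγt+ Tregs and 42.7% ± 1.96 in CCR6+RORγt- Tregs (SD, n = 3). With the median coding transcript length in place of the longest, Irf3 moved above Irf9 and the rest of the order stood, but Irf1 (from 3569) and Irf2 (up to 4286) then overlapped, as did Irf3 (from 882) and Irf9 (up to 884).

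**Figure D4:**
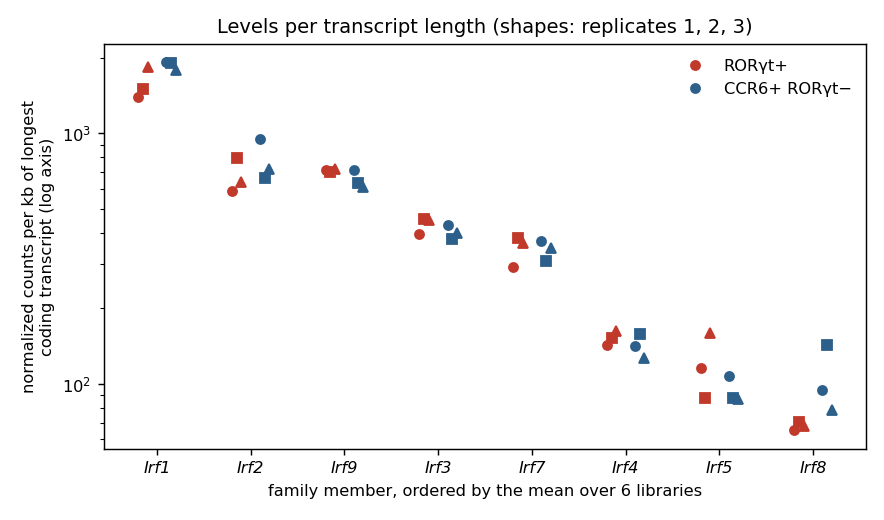
Normalized counts per kilobase of the longest coding transcript (log axis) for each member in the 3 RORγt+ (red) and 3 CCR6+RORγt- (blue) libraries, with members ordered by their mean over 6 libraries. Irf1 lies between 1391 and 1915 in every library, and Irf4, Irf5 and Irf8 lie between 65.2 and 163.

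The genes that act before and after the family were read from lists of known pathway genes. In the interferon receptor and kinase list, 0 of 12 measured genes passed by limma in either direction, 3 had an unadjusted p under 0.05 (10.9% of all genes did), and the median log2 fold change was −0.067. Stat2, a subunit of ISGF3, stood at 1397 ± 37.6 and 1111 ± 126 normalized counts (SD, n = 3, log2 fold change 0.34 ± 0.13, SE, adjusted p = 0.409), and its groups did not overlap. The interferon receptor chains Ifnar2, of the type I receptor, and Ifngr2, of the type II receptor, had values of −0.35 (adjusted p = 0.343) and 0.64 (adjusted p = 0.364). The kinase Jak1 was the most abundant of the list, at 11692 and 12830 normalized counts.

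The list of nucleic acid sensing genes, whose signals end at IRF3, IRF5 and IRF7, had 0 of 21 past the limma threshold. It had 2 at an unadjusted p under 0.05, against 10.9% of all genes, and a median of −9.2e-05. The RNA sensor Ifih1 and the DNA sensor Cgas had log2 fold changes of −0.87 ± 0.28 and −0.63 ± 0.23 (SE, adjusted p = 0.321 and 0.373), and the receptor kinase Irak1 had −0.38 (adjusted p = 0.469). The groups did not overlap for Ifih1 and Cgas. The adaptor Sting1, listed here by its older symbol Tmem173, averaged 2928 and 3018 normalized counts, and the kinase Ikbke 2562 and 2367.

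Among binding partners and co-factors, 1 of 21 measured genes rose (0.32% of all genes did), 0 fell and 20 did not pass. The list's median was −0.052, and the unadjusted p was under 0.05 for 4 genes, against 10.9% of all genes. The gene that rose was Ikzf3, which encodes the Ikaros family factor Aiolos, at 4601 ± 425 against 2566 ± 90.8 normalized counts (SD, n = 3, log2 fold change 0.84 ± 0.12, SE, adjusted p = 0.0313). Leaving out RORγt+ replicate 3 kept this call (adjusted p = 0.0225), and leaving out any other library ended it, with adjusted p up to 0.206. Across those fits the log2 fold change of Ikzf3 lay between 0.76 and 0.88. Batf, the AP-1 partner of IRF4 and IRF8 in T cells, stood at 512, 630 and 676 normalized counts in RORγt+ libraries and at 931, 862 and 841 in CCR6+RORγt- libraries. Every RORγt+ value was below every CCR6+RORγt- value, and the log2 fold change of −0.54 ± 0.15 (SE, adjusted p = 0.240) did not pass. The ETS partner Spi1, also a monocyte marker, averaged 7.99 and 1.78 normalized counts (adjusted p = 0.406). Ets1 was the most abundant partner, at 19519 and 20219, followed by Ikzf1 at 5846 and 5041.

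In the list of genes known to depend on IRF4 in effector Tregs, 1 of 18 fell (0.245% of all genes did), 0 rose and 17 did not pass. At an unadjusted p under 0.05 there were 11 genes, against 10.9% of all genes, and the median was −0.031. The gene that fell was Pdcd1, the gene of the inhibitory receptor PD-1, at 433, 531 and 588 normalized counts in RORγt+ libraries against 1543, 1336 and 1159 (log2 fold change −1.38 ± 0.17, SE, adjusted p = 0.0219). This call too was kept without RORγt+ replicate 3 (adjusted p = 0.0176) and ended without any other library, with adjusted p up to 0.151. The log2 fold change of Pdcd1 lay between −1.48 and −1.26 in those fits. The costimulatory receptor Tnfrsf9 had −0.84 ± 0.14 (adjusted p = 0.0601) and the chemokine receptor Ccr8 −1.21 ± 0.20 (adjusted p = 0.0593). The groups did not overlap in 11 of the 18 genes, 5 with higher and 6 with lower values in RORγt+ libraries, where 8.31% and 9.81% of all genes did so. The list was chosen with earlier results of these data known, so its counts set beside those shares are a description and not a test. The most abundant members, the interleukin-2 receptor chain Il2ra and the transcription factor Maf, had 0.42 (adjusted p = 0.349) and 0.50 (adjusted p = 0.233).

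In the list of known IRF1 and IRF8 targets, 1 of 19 fell (0.245% of all genes did), 0 rose and 18 did not pass. The median was 0.018, and 2 genes had an unadjusted p under 0.05, against 10.9% of all genes. The gene that fell was Bcl6, which encodes a transcriptional repressor known from follicular T cells. It stood at 286 ± 7.48 against 587 ± 13.9 normalized counts (SD, n = 3, log2 fold change −1.04 ± 0.13, SE, adjusted p = 0.0224). It was called without RORγt+ replicate 3 (adjusted p = 0.0171) and not without any other library, with adjusted p up to 0.161. In those fits its log2 fold change lay between −1.06 and −1.02. The interleukin-12 receptor chain Il12rb1 had 0.76 (adjusted p = 0.354). The class I heavy chain gene H2-K1 averaged 39918 and 39948, and B2m 28393 and 30252 normalized counts. Of interferon-stimulated genes bound by ISGF3, 0 of 31 passed by limma and 7 had an unadjusted p under 0.05, against 10.9% of all genes. Their fold changes were above 0 for 22 and below 0 for 9, and the median was 0.17 against −0.011 over all genes. The RORγt+ libraries disagreed, because the list summed to 34204, 34154 and 29739 normalized counts in replicates 1 to 3. The CCR6+RORγt- sums, 31059 to 32472, lay between these values. The nucleotide kinase Cmpk2 had 0.69 (adjusted p = 0.342) and the antiviral Ifit3 0.53 (adjusted p = 0.350), and the chaperone gene Rtp4 had 0.37 (adjusted p = 0.373). Parp14, among the most abundant of them, averaged 3501 and 3185 normalized counts.

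**Figure D5:**
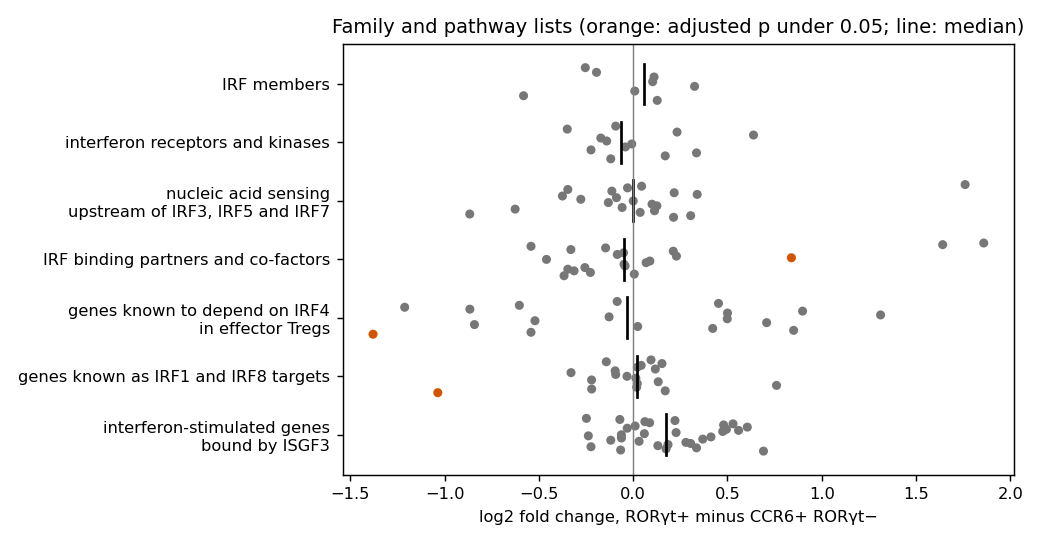
Log2 fold changes (horizontal axis, RORγt+ minus CCR6+RORγt-) of the 8 family members and of the genes in each pathway list, 1 point per gene, with genes past the limma threshold in orange and each list's median as a line. The 3 orange points are Ikzf3 at 0.84, Pdcd1 at −1.38 and Bcl6 at −1.04, and no family member is among them.

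The genes most like Irf4 over the 6 libraries, by Pearson's r of log2 values among 9055 genes with a mean of at least 100, included Cox5b (0.985) and Psma6 (0.979). They encode a respiratory chain subunit and a proteasome subunit. As many as 62 genes had r above 0.9, and the 6 points share libraries and scaling, so these values only describe the pattern.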

How the data were processed

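The authors deposited 1 table of normalized counts (a signal to 2 decimals, not raw reads) for 6 libraries. The submitters' processing notes list Salmon 1.2.0, DESeq2 and GRCm38 with no role for each, and the annotation and filters are not known from the sources. In each library 52.0% to 69.5% of values up to 20 reads lay within 0.1 read of a whole number, so reads could not be recovered. Log2(value + 1) was fitted on the group over all 15944 genes with limma 3.58.1 in R 4.3.3 (trended empirical Bayes, two-sided, Benjamini-Hochberg, threshold 0.05), with no filter, after the fit was tested on simulated data. Ratios were compared by exact permutation. Positions, lengths and 31-base windows came from GENCODE M21. The members and lists were chosen with earlier results of these data known. Named were all members, up to 3 genes a pathway list with the smallest adjusted p and 2 with the highest mean, 2 markers a cell list with the highest mean and defining markers at 0, and the 3 genes most like Irf4. Ccr9, Tnpo3, Rnf31 and Gm20388, which are outside that rule, were named after their values were seen. Some genes the rule names are not reported here. The alternatives were pseudocounts of 0.1 and 5, 2 other scalings, a mean of at least 10, robust variances, array weights, a replicate block and left-out libraries.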

Additional observations from a re-analysis of the deposited data

How the results depend on the processing

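No member passed in any of the 15 alternatives, and 7 of the 8 members kept the sign of their fold change in all of them. Irf7 did not, with log2 fold changes of −0.012 under upper-quartile scaling, −0.069 to 0.13 when each library was left out, and −0.11 without both RORγt+ replicate 3 and CCR6+RORγt- replicate 2, an alternative chosen after seeing the data. Over all genes, 90 calls became 358 with array weights, 4 without both of those libraries, and 4 to 174 when each library was left out. The 3 pathway genes called became 8, 0, and 0 to 5. With the replicate block, 1 gene was called over all genes, 0 pathway genes and 0 members. The deviations of libraries with the same number from their group means correlated at −0.105, −0.022 and −0.184. Deviations from a mean of 3 libraries offset each other, so these values cannot settle whether the numbers pair the samples. When each library was left out, the difference in log2 ratio ranged from −0.21 to 0.096 for Irf1 to Irf2 and from −0.0038 to 0.21 for Irf9 to Irf7. With median coding transcript lengths, levels per kilobase were 4412 for Irf1, 3290 for Irf2, 975 for Irf3, 838 for Irf9, 419 for Irf7, 142 for Irf5 and 138 for Irf8. Depth limits Irf8 and Irf5 most, at 155 to 445 and 197 to 286 reads.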
